A study of Drosophila melanogaster with 9 samples.

Results

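The subject is a set of 9 Drosophila genes that switch on, carry out or restrain programmed cell death. They are the death activators rpr, grim, hid and skl, the caspases Dronc, Drice and Dcp-1, the adaptor Dark, and the inhibitor Diap1. Members were found as probe sets to which the platform annotation gives 1 gene symbol of the set, older symbols included. Of the 9 genes, 5 were found, on 6 of the 18769 fly probe sets in the table. These are grim (1633724_at), skl (1630223_at), Dronc (1641607_at) and Dcp-1 (1637487_at) with 1 probe set each, and Dark with 2 (1638709_at and 1624898_a_at). RefSeq places grim, skl and Dronc on chromosome arm 3L and Dcp-1 and Dark on 2R. rpr, hid, Drice and Diap1 were named by no single-symbol probe set in the annotation used, so their levels were not analysed here.

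Programmed cell death in the fly embryo is set off by transcription of the activator genes. Their proteins carry an N-terminal motif that binds Diap1, an inhibitor of caspases, and so releases the brake. The initiator caspase Dronc is then assembled with Dark, the fly relative of Apaf-1, and cleaves the effector caspases Drice and Dcp-1. In the embryo cell death starts while the germ band is extended and shapes the head and the nervous system. Dead cells are taken up by macrophages. Since the activators are switched on by transcription while the caspases are activated as proteins, a transcript level says nothing of caspase activity.

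RNA from whole dechorionated embryos at stages 10 to 13 was hybridised to 9 Affymetrix Drosophila Genome 2.0 arrays, 3 in each of 3 groups. The first group was homozygous for cbtEP(2)2237E1, a mutant allele of cabut (cbt), which encodes a zinc finger transcription factor needed for dorsal closure, and was sorted as the embryos lacking GFP from a stock balanced over Cy0, twi-eGFP. The control group was white 1118 (w1118). In the third group, labelled Cbt>69B, the epidermal driver 69B-Gal4 was used to express a UAS-Cbt transgene, so any direct effect of the transgene is limited to the cells in which that driver is active. About 1000 embryos were pooled for each mutant and each Cbt>69B sample. For w1118 the labels name no such number. No driver-only or transgene-only embryos were analysed here, and the labels do not say whether the arrays of a group stand for separate egg collections. The p-values below therefore cover the spread from array to array, which may be technical only. In whole embryos, fewer cells of a type and less RNA per cell cannot be told apart.

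Some facts of the whole series bear on every value below. cbt stood at log2 levels of 6.22, 6.05 and 7.90 in w1118, 4.25, 4.70 and 3.85 in the mutant, and 3.17, 3.16 and 3.74 in the arrays labelled Cbt>69B. It was thus lowest where the label says it was supplied, and directions in that group are given for "the arrays labelled Cbt>69B". Whether labels were exchanged, for these arrays or for w1118 replicate 2, could not be told from the files. The cbt difference from w1118 was -2.46 (limma adjusted p = 0.19) in the mutant and -3.37 (adjusted p = 0.0436) in the arrays labelled Cbt>69B. Both passed without w1118 replicate 2, at -2.80 (adjusted p = 0.0049) and -3.71 (adjusted p = 0.000641). With replicate 2 as the only control they were -1.79 and -2.70, so the sign stayed while the size fell. w1118 replicates 1 and 3 correlated with each other at r = 0.987 across probe sets, and with replicate 2 at 0.890 and 0.894. Replicate 2 correlated at 0.968 to 0.981 with the arrays labelled Cbt>69B. Poly-A spike-ins, control RNA added to the samples, averaged 1.91 and 2.42 on w1118 replicates 1 and 3 and 3.09 to 4.03 on the other 7 arrays. The distribution of levels also differed between arrays. The upper quartile was 4.03 and 3.99 on w1118 replicates 1 and 3 and 3.45 on replicate 2. It was 3.73 to 3.88 in the mutant and 3.14 to 3.43 in the arrays labelled Cbt>69B. Marker medians of every list read, except the germline and maternal one, were higher on w1118 replicates 1 and 3 than on replicate 2. For amnioserosa they were 5.31 to 5.41 on replicates 1 and 3 and 4.47 on replicate 2. For early segmentation they were 4.25 to 4.63 and 2.82, and for the epidermal barrier 3.14 to 4.12 and 1.45. The germline and maternal median was 1.32 and 2.38 on replicates 1 and 3 and 1.59 on replicate 2. The median of the 10 macrophage markers was 5.89 to 6.13 on w1118 replicates 1 and 3 and 4.17 on replicate 2. It was 4.63 to 4.88 in the mutant and 4.01 to 4.43 in the arrays labelled Cbt>69B. For the 5 muscle markers measured of 10 listed, these medians were 6.17 to 6.51, 1.29, 2.61 to 4.68 and 0.91 to 1.29. On replicates 1 and 2 of the arrays labelled Cbt>69B, only 2 and 3 of the 5 lay above the background level described below. For the 7 nervous system markers measured of 9 listed, the medians were 6.13 to 6.29, 5.18, 4.995 to 6.42 and 5.22 to 5.53. There the mutant range reached above w1118 replicates 1 and 3. Single markers could go against their list. The macrophage markers NimC4 (7.13, 8.53 and 6.90 in w1118) and crq (5.05, 5.68 and 5.42) were highest on replicate 2 among the controls. The members, cbt and the pathway genes of smallest p are therefore given against w1118 with all 3 control arrays and without replicate 2. Other pathway genes and the list medians are given against w1118 with all 3 only. Where replicate 2 is the only control, that arm is 1 array assumed to vary like the other groups, and only its values are given.

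**Figure D1:**
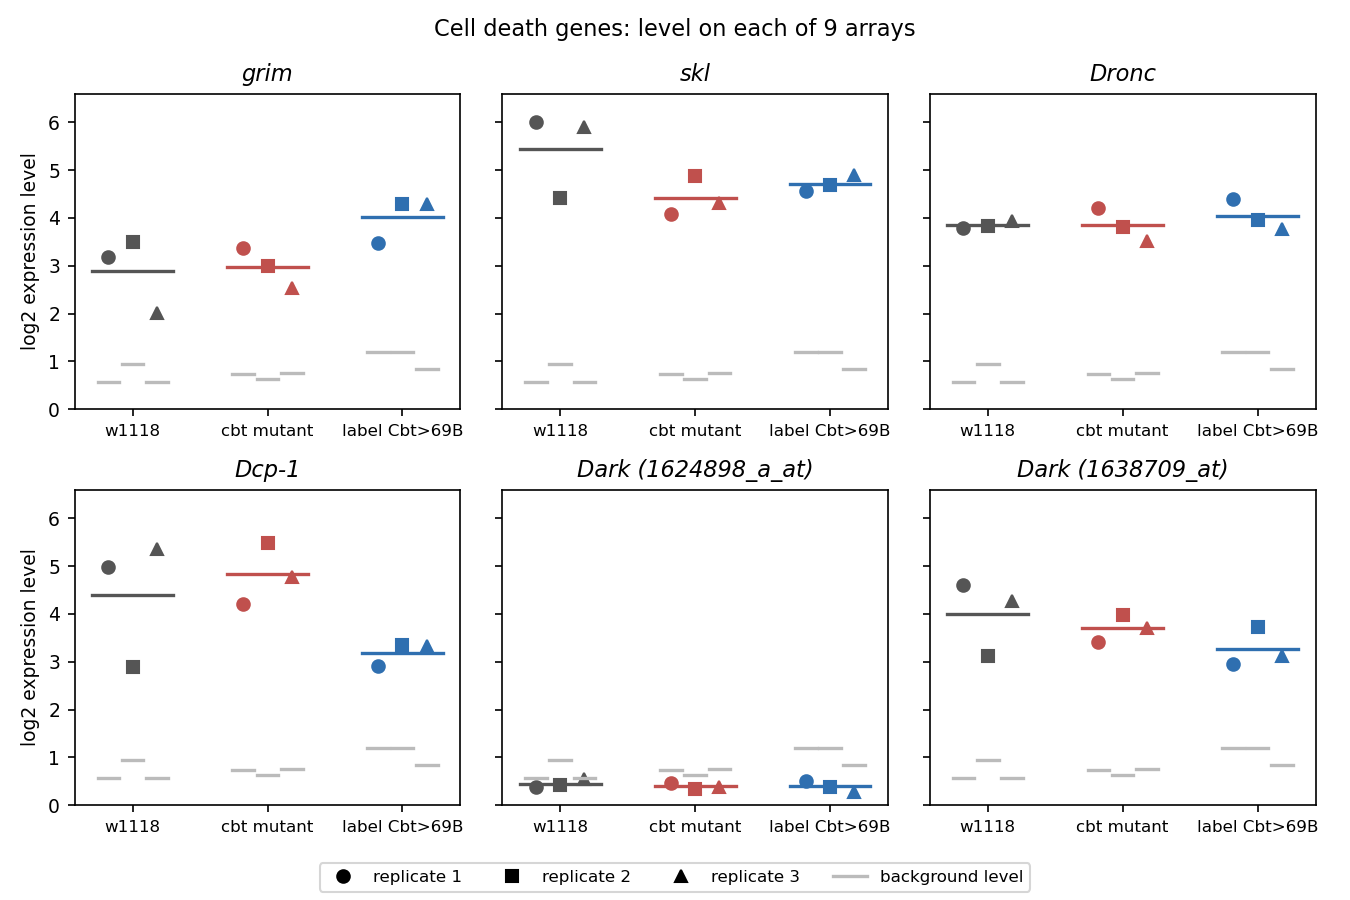
The 6 probe sets of the cell death genes, with the deposited log2 expression level on the y axis and the 3 groups on the x axis. Each symbol is 1 array, horizontal coloured lines are group means (n = 3), and grey dashes are the background level of each array. skl is near 6 on w1118 replicates 1 and 3 only, and Dcp-1 is lowest on w1118 replicate 2 and the arrays labelled Cbt>69B. Dronc varies least of the probe sets above background at these deposited levels, and Dark probe set 1624898_a_at never rises above background.

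Levels are deposited log2 values, so a difference of 1 unit is a doubling. They are compared only within a probe set, since the brightness of different probes is not on 1 scale. The background level of an array, 0.58 to 1.20, is its highest Tag control, a probe set with no fly target. Of the 6 member probe sets, 5 lay above it on all 9 arrays, and Dark probe set 1624898_a_at lay at or below it on all 9.

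No member passed the threshold in any of the 3 comparisons. In the limma fit across all 18769 probe sets, 0 of 6 member probe sets had a Benjamini-Hochberg adjusted p under 0.05 for mutant against w1118, beside 0.133% of all probe sets. The same count was 0 of 6 beside 0.373% for the arrays labelled Cbt>69B against w1118, and 0 of 6 beside 0.256% for those arrays against the mutant. At an unadjusted p under 0.05 there was 1 of 6 member probe sets in the first comparison (9% of all probe sets), 1 in the second (31.9%) and 2 in the third (18.9%). The shares of all probe sets called are so low that a count of 0 among 6 does not set the members apart. The median difference over the 6 was -0.033, -0.39 and 0.095, against 0.0097, 0.091 and 0.081 over all probe sets. Over the probe sets with a mean log2 level above 2, the medians were 0.11, -0.34 and -0.28.

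Of the activators, grim was higher on average in the arrays labelled Cbt>69B than in either other group, without passing the test. Grim is one of the proteins that bind and remove Diap1. Its levels were 3.18, 3.50 and 2.01 in w1118, 3.36, 2.99 and 2.54 in the mutant, and 3.46, 4.29 and 4.29 in the arrays labelled Cbt>69B. The last group lay above all 3 mutant arrays, with 3.46 against 3.36 at the nearest pair, and overlapped with w1118 only through its replicate 1 and w1118 replicate 2. Group means were 2.90 ± 0.79, 2.96 ± 0.41 and 4.02 ± 0.48 (SD, n = 3 each). The difference between the arrays labelled Cbt>69B and w1118 was 1.12 (SE 0.42, 95% interval 0.14 to 2.10, limma adjusted p = 0.128), and against the mutant 1.05 (95% interval 0.07 to 2.03, adjusted p = 0.245). These comparisons share the arrays labelled Cbt>69B. Mutant and w1118 differed by 0.066 (95% interval -0.91 to 1.05, adjusted p = 0.99). Without w1118 replicate 2, the arrays labelled Cbt>69B differed from w1118 by 1.42, which passed (adjusted p = 0.0277). The mutant then differed from w1118 by 0.37 (adjusted p = 0.65). With that replicate as the only control these differences were 0.51 and -0.54.

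skl (sickle), the activator at the far end of the same gene cluster, separated the control arrays from each other more clearly than it separated the groups. It stood at 5.999, 4.41 and 5.89 in w1118, 4.08, 4.87 and 4.31 in the mutant, and 4.56, 4.69 and 4.90 in the arrays labelled Cbt>69B. The 2 highest values are w1118 replicates 1 and 3, the next is 4.90, and w1118 replicate 2 lay within the mutant range. In the mutant skl differed from w1118 by -1.01 (SE 0.42, 95% interval -1.98 to -0.05, adjusted p = 0.541), from 5.43 ± 0.89 to 4.42 ± 0.41 (SD, n = 3 each). In the arrays labelled Cbt>69B, at 4.71 ± 0.17, the difference from w1118 was -0.72 (95% interval -1.69 to 0.24, adjusted p = 0.256). Without w1118 replicate 2 both differences grew and passed, at -1.53 (adjusted p = 0.00296) and -1.23 (adjusted p = 0.0038). Against w1118 replicate 2 alone they were 0.011 and 0.30. All marker medians given above except the germline and maternal one are higher on the same 2 w1118 arrays as skl than on replicate 2. The macrophage markers crq and NimC4 are not. This split is thus shared by most lists, and the part of any tissue in the skl difference was not tested. The arrays labelled Cbt>69B and the mutant differed by 0.29 (95% interval -0.67 to 1.26, adjusted p = 0.708).

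grim and skl lie in 1 cluster on chromosome arm 3L with hid and rpr, in the order hid, grim, rpr, skl in the RefSeq gene table of assembly Release 6 plus ISO1 MT. Between hid and skl that table lists 13 further genes, of which 4 code for proteins. These 4, CG7320, CheA75a, CG5103 and CG13700, are also the ones with a probe set. Their levels were low, at most 1.50 on any array, and 27 of their 36 values lay at or below the background of the array. CheA75a was above background on 8 arrays, at 0.60 to 1.50. The neighbours thus gave little signal beside grim and skl, and no fold change is given for them.

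**Figure D2:**
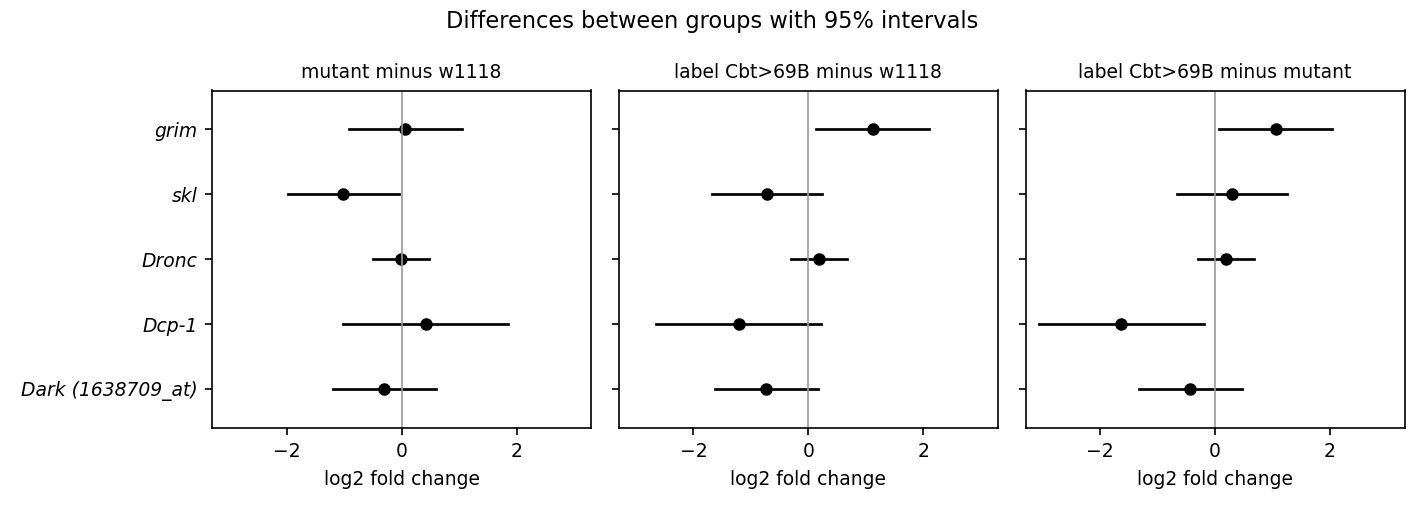
Log2 fold changes (x axis) of the 5 member probe sets above background in the 3 comparisons, as points with 95% intervals from the limma fit of all 9 arrays (3 per group). Intervals are unadjusted. Those of grim in both comparisons of the arrays labelled Cbt>69B, of skl in mutant minus w1118, and of Dcp-1 in label Cbt>69B minus mutant lie to 1 side of 0, but no adjusted p passed.

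Dronc, the initiator caspase and fly counterpart of caspase-9, varied least among the members above background. Its levels were 3.79, 3.84 and 3.93 in w1118, 4.21, 3.81 and 3.52 in the mutant, and 4.39, 3.95 and 3.77 in the arrays labelled Cbt>69B. All 3 w1118 arrays, replicate 2 included, lay close together and inside the range of both other groups. Means were 3.85 ± 0.07, 3.85 ± 0.34 and 4.04 ± 0.32 (SD, n = 3 each). The mutant differed from w1118 by -0.0082 (95% interval -0.50 to 0.48, adjusted p = 0.997). The arrays labelled Cbt>69B differed from w1118 by 0.18 (95% interval -0.31 to 0.67, adjusted p = 0.56) and from the mutant by 0.19 (95% interval -0.30 to 0.68, adjusted p = 0.626). The differences from w1118 without its replicate 2 were -0.018 (adjusted p = 0.977) and 0.17 (adjusted p = 0.573). The intervals with all arrays, as deposited, are the narrowest of the 5 members above background, and each reaches less than 1 log2 unit from 0. The size depended on the scaling. With quantile normalization the arrays labelled Cbt>69B differed from w1118 by 0.65 (adjusted p = 0.175) and from the mutant by 0.59 (adjusted p = 0.344). With cyclic loess these differences were 0.65 (adjusted p = 0.185) and 0.53 (adjusted p = 0.412).

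Dark, the adaptor that assembles Dronc into the apoptosome, could be read on only 1 of its probe sets. On 1638709_at it stood at 4.60, 3.11 and 4.28 in w1118, 3.42, 3.97 and 3.71 in the mutant, and 2.96, 3.73 and 3.11 in the arrays labelled Cbt>69B. The same w1118 replicates, 1 and 3, were highest, and replicate 2 lay among the arrays labelled Cbt>69B. The difference from w1118 was -0.30 (95% interval -1.20 to 0.60, adjusted p = 0.905) in the mutant and -0.73 (95% interval -1.63 to 0.17, adjusted p = 0.226) in the arrays labelled Cbt>69B. Without w1118 replicate 2 these values became -0.74 (adjusted p = 0.0903) and -1.17 (adjusted p = 0.00858). With replicate 2 as the only control they were 0.59 and 0.15. Between the arrays labelled Cbt>69B and the mutant the value was -0.43 (95% interval -1.33 to 0.47, adjusted p = 0.542), with overlapping arrays. The other probe set, 1624898_a_at, lay between 0.28 and 0.55. No fold is given there. Which part of the Dark transcripts each probe set covers was not analysed here.

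Dcp-1, an effector caspase that cuts cell proteins, was the member with the widest range. It stood at 4.97, 2.88 and 5.35 in w1118, 4.21, 5.49 and 4.77 in the mutant, and 2.90, 3.35 and 3.32 in the arrays labelled Cbt>69B. All 3 arrays labelled Cbt>69B lay below all 3 mutant arrays, and w1118 replicate 2 lay below them all. Means were 4.40 ± 1.33, 4.82 ± 0.64 and 3.19 ± 0.25 (SD, n = 3 each). The comparison of the arrays labelled Cbt>69B with the mutant does not rest on the w1118 values, apart from the shared spread. It gave -1.64 (SE 0.62, 95% interval -3.07 to -0.20, adjusted p = 0.23). With only those 2 groups fitted, the same difference passed (adjusted p = 0.0244, beside 2595 called probe sets). It passed also without w1118 replicate 2 (adjusted p = 0.0158), where the difference stays the same and the spread narrows. Against w1118 the arrays labelled Cbt>69B differed by -1.21 (95% interval -2.65 to 0.22, adjusted p = 0.211), which became -1.97 (adjusted p = 0.00279) without w1118 replicate 2 and 0.31 with it as the only control. The mutant differed from w1118 by 0.42 (95% interval -1.02 to 1.86, adjusted p = 0.921), by -0.34 without w1118 replicate 2 and by 1.94 with it as the only control.

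Read over all members, the groups did not overlap for 0 of 6 probe sets in mutant against w1118 (9.79% of all probe sets) and for 0 of 6 in the arrays labelled Cbt>69B against w1118 (29%). They did not overlap for 2 of 6, grim and Dcp-1, in the arrays labelled Cbt>69B against the mutant (38.6%). Without w1118 replicate 2, calls were made for 1 of 6 member probe sets in the first comparison (21.2% of all probe sets), 4 of 6 in the second (40.6%) and 1 of 6 in the third (16%). In the second these were grim, which rose, and skl, Dcp-1 and Dark probe set 1638709_at, which fell. The controls in that setting are w1118 replicates 1 and 3, so the transgene cannot be told apart there from whatever sets these 2 arrays apart.

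**Figure D3:**
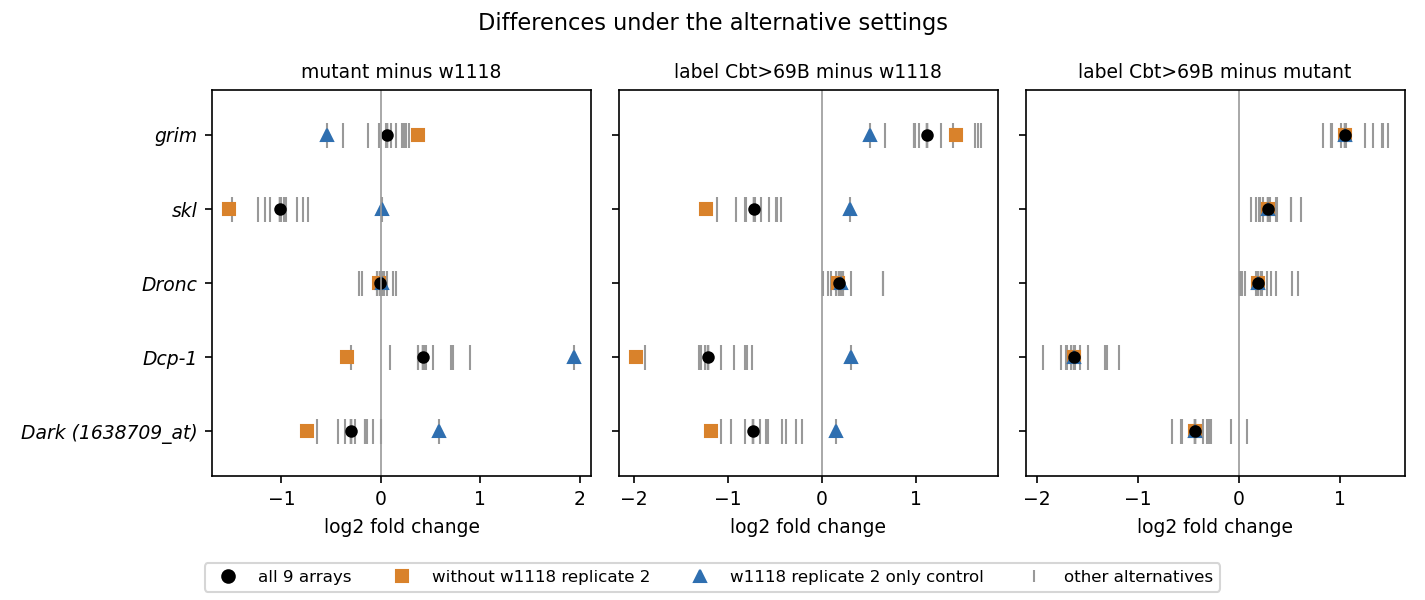
Log2 fold changes (x axis) of the 5 member probe sets above background with all 9 arrays (black circles), without w1118 replicate 2 (orange squares), with w1118 replicate 2 as the only control (blue triangles) and under the other alternatives (grey bars). In mutant minus w1118, skl spans -1.53 to 0.011 between the last 2 named settings. In label Cbt>69B minus mutant, grim stays above 0 and Dcp-1 below 0. The last 2 named settings only leave out w1118 arrays and so cannot change that difference.

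The members did not vary as a single block across the 9 arrays, and the following correlations are descriptions over arrays that share groups and the control split. Dcp-1 and Dark (1638709_at) had Pearson's r = 0.83, and skl and Dark 0.76. grim ran against Dcp-1 (r = -0.74) and Dark (r = -0.53). The genes with 1 symbol and a mean log2 level above 2 whose levels were most like those of grim were CG8407 (r = 0.98), CG14687 (0.97) and ara (0.97), an Iroquois homeodomain gene. For skl they were sn (0.98), which encodes fascin, Sbf (0.98) and hry (0.97), the pair-rule repressor hairy. For Dcp-1 they were CG5787 (0.99) and the nucleoporin genes Nup50 (0.99) and Nup62 (0.99). Dark (1638709_at) was most like Atet (0.99), the cap-binding factor gene eIF4E1 (0.98) and CG11961 (0.97). Dronc had no such close match, with Ntan1 (0.89), rost (0.83) and Orp8 (0.80) nearest.

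The rest of the death machinery was read through 8 lists with 61 genes, 49 of them measured. In limma's fit 0 of 49 had an adjusted p under 0.05 in any of the 3 comparisons. At an unadjusted p under 0.05 there were 2 higher and 4 lower in the mutant than in w1118, 8 higher and 15 lower in the arrays labelled Cbt>69B than in w1118, and 0 higher and 10 lower in those arrays than in the mutant, where 9%, 31.9% and 18.9% of all probe sets passed in either direction. Arrays did not overlap for 3, 16 and 21 of the 49, which is 6.12%, 32.7% and 42.9% beside 9.79%, 29% and 38.6% of all probe sets. Median differences over the 49 were -0.092, -0.39 and -0.077, beside 0.0097, 0.091 and 0.081 over all probe sets. Over all probe sets with a mean log2 level above 2, which include 35 of the 49, they were 0.11, -0.34 and -0.28. Of the 49 genes, 36 were above background on all 9 arrays. Eip93F and Drep3 were above it on none, Drep2 on 1, Drep1 on 3 and Damm on 4, so their differences carry little or no direction. A further 6 genes were above it on 8 arrays and 2 on 7.

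Among the 3 other caspases measured of 4 listed, Dredd, which acts in immune signalling, and Strica differed from w1118 by 0.27 and -0.32 in the mutant (limma adjusted p = 0.729 and 0.814). In the arrays labelled Cbt>69B the differences from w1118 were 0.34 and -0.53 (adjusted p = 0.214 and 0.212). Strica lay below background on replicate 1 of that group. Damm was above background on 4 of 9 arrays, none of them labelled Cbt>69B, and is given no fold change. The arrays overlapped for all 3 genes in every comparison. The initiator and effector caspases read here, Dronc and Dcp-1, thus stand beside 3 further caspases with no call.

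In the mutant against w1118, the 4 pathway genes with the smallest p were crq, Stat92E, EcR and grh, and none passed. crq (croquemort), a macrophage receptor for dead cells, stood at 5.05, 5.68 and 5.42 in w1118, 4.54, 4.66 and 4.87 in the mutant and 5.02, 4.61 and 4.92 in the arrays labelled Cbt>69B. All mutant arrays lay below all w1118 arrays, with a difference of -0.69 (SE 0.19, adjusted p = 0.371), and here w1118 replicate 2 was the highest of the controls. Without it the difference was -0.54 (adjusted p = 0.08). Of the transcription factors known to act on rpr or hid, 6 of 8 listed were measured and 5 lay above background in either group. All 5 had negative values (median -0.80), and Eip93F gave no direction. Stat92E, the transcription factor of the JAK/STAT pathway, was at -0.98 (adjusted p = 0.376) and the ecdysone receptor gene EcR at -0.80 (adjusted p = 0.386), both without overlap of the arrays. The epidermal factor gene grh was at -1.29 (adjusted p = 0.453). All 3 genes followed the split of the controls, with w1118 levels of 7.84, 6.20 and 7.78 for grh, 6.76, 5.85 and 7.01 for Stat92E, and 4.32, 3.55 and 4.12 for EcR. They passed without w1118 replicate 2, at -1.82 for grh (adjusted p = 0.00174), -1.32 for Stat92E (adjusted p = 0.00108) and -1.02 for EcR (adjusted p = 0.00696). Against replicate 2 alone they were at -0.21, -0.30 and -0.35. Of the 6 factors measured, 3 had an unadjusted p under 0.05, beside 9% of all probe sets.

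In the arrays labelled Cbt>69B against w1118, the 4 smallest p belonged to prtp, Tab2, Fadd and Ced-12, again without a call. prtp (pretaporter), a ligand of the engulfment receptor Draper, stood at 7.39, 7.80 and 6.86 in w1118 and 8.61, 8.56 and 8.41 in the arrays labelled Cbt>69B, without overlap. The difference was 1.18 (SE 0.25, adjusted p = 0.0873), 1.40 without w1118 replicate 2 (adjusted p = 0.00135) and 0.73 against that replicate alone. Ced-12, which acts with the engulfment machinery on the actin cytoskeleton, was at 4.81, 2.37 and 5.02 in w1118 and at 0.84, 2.01 and 1.20 in the arrays labelled Cbt>69B. Its difference was -2.72 (SE 0.74, adjusted p = 0.0969), -3.57 without w1118 replicate 2 (adjusted p = 0.000905) and -1.02 against that replicate alone. The Ced-12 value of 0.84, on replicate 1 of the arrays labelled Cbt>69B, lay below the background of that array, 1.20. The engulfment genes as a list did not point one way, with 5 of 9 values positive. The TNF list had 5 of 6 values negative and 5 with an unadjusted p under 0.05, beside 31.9% of all probe sets. Its median was -1.12, beside 0.091 for all probe sets and -0.34 for those with a mean log2 level above 2. On that list egr, the TNF ligand gene, its receptor gene wgn, Traf6 and Tab2 were lower on w1118 replicate 2 than on replicates 1 and 3, with 4.86, 3.23 and 4.78 for egr and 5.28, 3.72 and 5.02 for wgn. Tab2, an adaptor of the kinase Tak1, was at -1.32 (adjusted p = 0.0944) and the death domain adaptor gene Fadd at -0.89 (adjusted p = 0.0968). They were at -1.67 (adjusted p = 0.00111) and -0.88 (adjusted p = 0.0371) without w1118 replicate 2. Against that replicate alone they were at -0.61 and -0.92. Fadd, at 0.60 on replicate 1 of the arrays labelled Cbt>69B, also lay below background there. Tab2, at 1.26 on replicate 2 of that group, lay just above the background of 1.20.

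In the arrays labelled Cbt>69B against the mutant, the 4 smallest p belonged to Corp, Tab2, eIF3m (listed under its older name Tango7) and Fadd. Corp, a p53-induced regulator of p53, stood at 4.02, 4.67 and 4.28 in the mutant and 2.36, 3.01 and 3.19 in the arrays labelled Cbt>69B, a difference of -1.47 (SE 0.40, adjusted p = 0.145). p53 itself was at -0.49 (adjusted p = 0.248), also without overlap. eIF3m, which has been linked to Dronc activation in the fly, was at 7.62, 8.25 and 8.49 in the mutant. In the arrays labelled Cbt>69B it was at 2.94, 6.30 and 5.56, so the arrays of that group differed by more than 3 log2 units among themselves. The difference was -3.19 (SE 0.98, adjusted p = 0.17). Tab2 was at -1.22 (adjusted p = 0.145) and Fadd at -0.75 (adjusted p = 0.184). Leaving out w1118 replicate 2 keeps these differences as they are and narrows the spread. In that setting Corp (adjusted p = 0.0197), Tab2 (0.0131) and eIF3m (0.0305) passed and Fadd (0.079) did not.

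**Figure D4:**
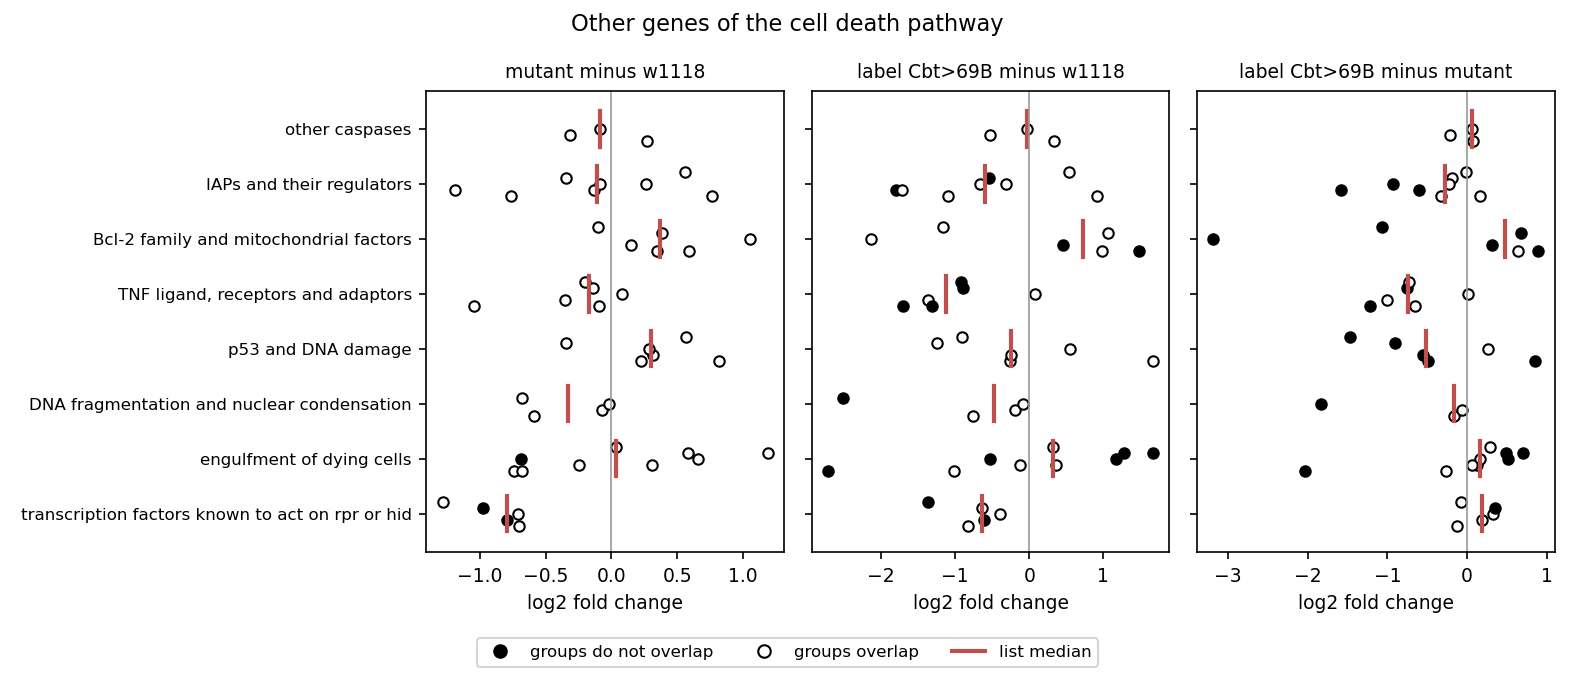
Log2 fold changes (x axis) of the measured genes in 8 lists of the cell death pathway (y axis) for the 3 comparisons. Of the 49 genes, 47, 47 and 46 are drawn, those above background on an array of either group compared. Each circle is 1 gene, filled where the arrays of the groups (3 each) do not overlap, and red lines are list medians. The TNF list has a median of -1.12 in label Cbt>69B minus w1118, and the transcription factors one of -0.80 in mutant minus w1118, with no single gene passing in any comparison with all arrays.

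Without w1118 replicate 2, 17 of 49 pathway genes were called in the mutant against w1118, 31 of 49 in the arrays labelled Cbt>69B against w1118 and 10 of 49 against the mutant. These stand beside 21.2%, 40.6% and 16% of all probe sets. In the first comparison 9 were higher and 8 lower, in the second 13 and 18, and in the third 4 and 6.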

How the data were processed

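The authors deposited 1 log2 expression level per probe set for each of 9 arrays. RMA, affy and limma are named, without versions, per the submitters' processing notes. No source used here names the chip definition, filters or genome build. The table holds 18952 probe sets, of which 183 controls were left out. In the platform annotation 13647 fly probe sets had 1 gene symbol (11982 genes), 402 had several and 4720 had no symbol, and 13544 symbols were updated by gene ID through RefSeq (Release 6 plus ISO1 MT). Groups were fitted with limma 3.58.1 in R 4.3.3 on all 9 arrays with a term per group, with Benjamini-Hochberg adjustment over 18769 probe sets and a threshold of 0.05. With 3 arrays in each group, their number sets how precise a value can be. The fit was tested on simulated data with known changes. A probe set at or below the highest of 17 Tag controls on all arrays of a group has only a bound there.

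The members and lists were chosen with earlier results of these data known. All members and cbt are named, with the 4 pathway genes of smallest p per comparison, the genes between hid and skl, and the 3 genes most correlated with each member. For Dark probe set 1624898_a_at, never above background, these are left out. A few pathway genes (the other caspases, p53, egr, wgn, Traf6 and those near background) and some pairs of members were named after their values were seen. Pathway lists use the brightest probe set per gene. Alternatives were 3 scalings, 2 filters, array weights, another variance prior, only the 2 groups compared, a replicate block, each array left out, w1118 replicate 2 as the only control, a term for the split of w1118 replicates 1 and 3 in the poly-A spike-in controls, and removal of each array's trend with gene length.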

Additional observations from a re-analysis of the deposited data

How the results depend on the processing

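Over 21 alternatives, 272 of 315 member differences (5 probe sets, 3 comparisons) kept their direction and their side of the threshold, 16 moved past it and 27 changed sign. Many of these values could not change sign. The filters, the other variance prior, the fit of only the 2 groups and the replicate block leave the difference itself unchanged. So does leaving out or modelling arrays of a group not compared. The tally is thus no measure of how stable the directions are. With array weights, 1 of 6 member probe sets was called in mutant against w1118, 4 in the arrays labelled Cbt>69B against w1118 and 2 in those arrays against the mutant, and of 49 pathway genes 23, 33 and 10, beside 28.4%, 47.1% and 20.3% of all probe sets. Against the mutant, 1 member and 9 pathway genes were called with only the 2 groups fitted or with w1118 replicate 2 as the only control (13.8% of all probe sets), and 1 and 10 where the model held the split seen in the spike-in controls (16%). With a mean log2 level above 2 required, 5 of the 35 pathway genes kept (14.3%) were called in the arrays labelled Cbt>69B against w1118. This stands beside 15.9% of all probe sets kept. Leaving out single arrays gave 0 to 1, 0 to 4 and 0 to 1 members and 0 to 17, 0 to 31 and 0 to 10 pathway genes, and every count above 0 came from leaving out w1118 replicate 2. Over all probe sets these counts ran from 12 to 3987, 11 to 7625 and 24 to 2999, against 25, 70 and 48 with all arrays.

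Sign changes lay mostly in mutant against w1118. Dronc was at 0.027 with equal medians, 0.060 with quantile normalization and 0.13 with cyclic loess. Cyclic loess also gave Tab2 0.15 and Fadd 0.055. Removal of the gene length trend gave grim -0.018 and Tab2 0.17, and array weights gave Dcp-1 -0.30. With w1118 replicate 2 as the only control, and equally with the split in the model, the mutant values were -0.54 for grim, 0.011 for skl, 0.0105 for Dronc, 0.59 for Dark (1638709_at), 0.62 for Tab2, 1.02 for Ced-12 and -0.17 for Corp. In both settings the arrays labelled Cbt>69B against w1118 gave 0.30 for skl, 0.31 for Dcp-1, 0.15 for Dark and 0.054 for Stat92E. Against the mutant, Dark was at 0.084 with quantile normalization and grh at 0.0017 with array weights. Leaving out single arrays, mutant minus w1118 ran from -0.38 to 0.37 for grim, -0.19 to 0.15 for Dronc, -0.74 to 0.0041 for Dark, -0.34 to 0.90 for Dcp-1 and -0.45 to 0.10 for Tab2, and grh against the mutant from -0.22 to 0.14. The cause of these changes was not tested. The median of all probe sets in the arrays labelled Cbt>69B against the mutant was 0.081 as deposited and -0.043 with equal medians. Sizes moved with the scaling too. Quantile normalization gave the arrays labelled Cbt>69B against w1118 1.62 for grim, -0.56 for skl and 0.65 for Dronc, beside 1.12, -0.72 and 0.18 as deposited. It gave -0.82 for Dcp-1 and -0.28 for Dark (1638709_at), beside -1.21 and -0.73. No member passed there.

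Same-numbered arrays had correlations of their deviations from the group means of -0.45 to 0.32, so the numbers were not taken as pairs. With a replicate block, 0 of 6 members and 0 of 49 pathway genes were called in each comparison, and 11, 17 and 30 of all probe sets.

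The controls rest on 3 arrays of which 1 differs from the others. No driver-only embryos were analysed here, 4 of the 9 genes were not analysed here, and whole-embryo levels do not show in which cells a transcript was made. Signal over background limits Dark probe set 1624898_a_at and, among the pathway genes, Eip93F, Drep3, Drep2, Drep1 and Damm.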
